A study of Mus musculus with 4 samples.

Results

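The genes described here are 10 transcription regulators of blood stem and progenitor cells: Mllt3, Meis1, Mecom, Hlf, Prdm16, Tal1, Lyl1, Lmo2, Gfi1 and Gfi1b. They were chosen from their known function in early haematopoiesis, with the genotype fold changes and levels of an earlier analysis of the same libraries in view, so their levels and fold changes below are a description and support no claim about the list. All 10 were found among the 27095 genes of the count table through their Entrez identifiers, and 9 passed the filter on low counts, Lyl1 being the exception. Host mice were lethally irradiated C57BL/6-Ly5.1 animals. The Suz12 cKO group had been given marrow of which 90% was Suz12 cKO and carried Ly5.2, and the wild-type group marrow of which 90% was wild type and carried Ly5.2; in both groups the other 10% was wild-type Ly5.1 marrow. Each group had 2 libraries, labelled biological replicates, each made by Cut&Tag with an antibody to H3K27me3 from 100000 sorted alveolar macrophages, which live in the airspaces of the lung and clear surfactant and particles. The labels give neither the driver of the Suz12 deletion nor the ages of the mice, nor whether Ly5.1 cells were sorted away.

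H3K27me3 is the histone mark laid down by Polycomb repressive complex PRC2, of which Suz12 is an obligate subunit, and it covers genes that a cell keeps silent. In blood, stem cell regulators are switched off as cells mature, and many of them are Polycomb targets in differentiated cells. Tal1 and Lyl1 are related basic helix-loop-helix factors that join Lmo2, a LIM-domain bridge, and Gata factors in one DNA-binding complex. Meis1 is a homeodomain cofactor of Hox proteins. Mecom (also known as Evi1) and Prdm16 are related PR-domain zinc finger proteins needed by stem cells, and Hlf is a PAR bZIP factor of quiescent stem cells. Mllt3 (also known as AF9) reads acylated histone H3 and belongs to elongation and Dot1l complexes. Gfi1 and Gfi1b are related repressors of granulocyte and lymphoid cells and of red cell and megakaryocyte precursors.

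The cKO libraries held 3331138 and 3567282 counts over gene windows, against 2592297 and 2142175 in the wild-type libraries. A window was the whole gene with about 3 kb on each side, so a value does not say where in the gene the mark lay. Levels are given as CPM (counts scaled to the library's total, with TMM factors) when libraries are compared, and as CPM per kb of window when genes are compared. A gene is called gained or lost when its log2 fold change, cKO over wild type, had a Benjamini-Hochberg adjusted p below 0.05 over the 16752 tested genes (edgeR). Gains made up 69.4% of all calls with TMM scaling, 55.7% with library totals, 48.8% when upper quartiles set the scale, and 93.6% when a housekeeping list did, a setting that shifted the median log2 fold change over all genes by 0.22. The targeted gene, Suz12, held 11 and 10 counts in the cKO libraries, against 8 and 10 in the wild-type libraries, and was not tested. H3K27me3 counts over a whole gene do not check its deletion. Genes that define alveolar macrophages carried little mark, with a median over 20 genes of 0.125 CPM per kb in cKO and 0.128 in wild type. Their summed level was 134 and 132 CPM in cKO, against 118 and 110 CPM in wild type. Among the 12 tested, both cKO libraries were higher at 6 and lower at 2. Of all tested genes, 24.1% were placed the first way and 23.6% the second. The log2 fold changes of the 12 centred on 0.38 (median), against −0.01 for all tested genes. None of the 12 was called (edgeR adjusted p of 0.05 or above for each), and of all tested genes 4.46% were gained and 1.96% lost. Plet1, with 95.1% of its window under others, had no counts in any library. Of 7 marker lists of other cells, 5 held 1 called gene each. Gained were Ly6c2 (granulocyte and monocyte, 7 tested), Zbtb46 (dendritic, 8 tested), Hopx (lung epithelial, 11 tested) and Pdgfrb (fibroblast and muscle, 8 tested). Emcn (endothelial, 10 tested) was lost. The T and NK cell list (11 tested) and the B and plasma cell list (8 tested) held no called gene. The part of such cells in the results below was not tested.

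Of the 9 tested regulators, 1 was called gained and none lost, against 4.46% and 1.96% of all tested genes. Both cKO libraries stood above both wild-type libraries at 4 of the 9 (Mllt3, Meis1, Hlf and Gfi1), where 24.1% of all tested genes did so, and below them at 1 (Mecom), where 23.6% did. At the other 4 the genotypes overlapped. The median log2 fold change of the 9 was 0.09, and that of all tested genes −0.01. Summed over the 10 genes, H3K27me3 was 1853 and 1956 CPM in cKO, against 1869 and 1757 CPM in wild type.

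**Figure D1:**
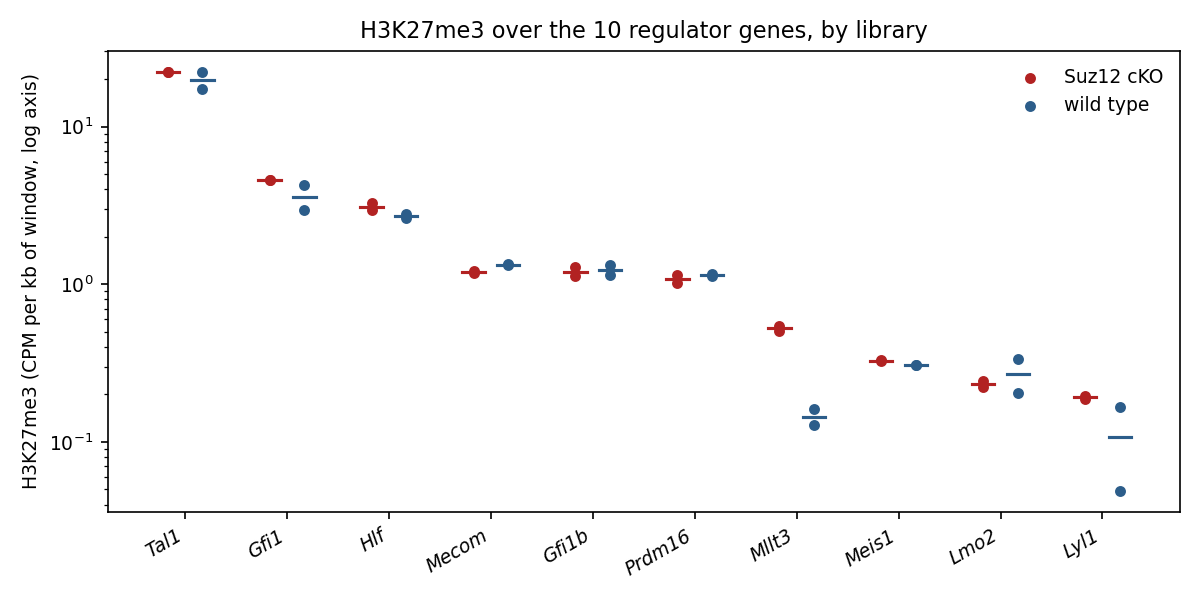
H3K27me3 over each of the 10 regulators, in CPM per kb of window on a log axis. Points are libraries and bars group means, with 2 Suz12 cKO libraries left and 2 wild-type libraries right. Tal1 stood at the top near 20 CPM per kb in both genotypes, and at Mllt3 both cKO libraries (0.506 and 0.543) lay above both wild-type libraries (0.128 and 0.161).

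Mllt3 was the member that gained the mark. Its gene (Entrez 70122) lies on chromosome 4 at 87769925 to 88033407 in mm10, and its window of 269.483 kb overlaps no other. It held 451 and 506 counts in the cKO libraries, against 90 and 96 in the wild-type libraries, which is 136 and 146 CPM against 34.5 and 43.4 CPM. Both cKO libraries were thus about equally high and both wild-type libraries low, with no overlap. The means were 141 ± 7.06 CPM in cKO and 38.9 ± 6.30 CPM in wild type (SD, n = 2 each), a log2 fold change of 1.87 ± 0.14 (SE), or 3.65-fold with a 95% interval of 3.01 to 4.42. The whole-table fit gave it an adjusted p of 1.30e-28, the 49th highest fold change and the 12th lowest p of 16752 genes. CPM is a share of each library's counts, so the gain is relative to other genes and gives no absolute amount. In these pooled-cell libraries, more cells carrying the mark, more mark per cell and less mark elsewhere cannot be told apart.

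In cKO, Mllt3 still stood below the median gene. Per kb it had 0.525 ± 0.0262 CPM in cKO and 0.145 ± 0.0234 CPM in wild type (SD, n = 2 each). The cKO level exceeded that of 43.4% of tested genes in cKO and the wild-type level that of 16.1% in wild type, and the medians of all tested genes were 0.680 and 0.663 CPM per kb. In wild type Mllt3 thus stood close to the alveolar macrophage genes (0.128), and in cKO well under Tal1, Gfi1 and Hlf.

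RefSeq (GRCm38.p6) places 2 Mllt3 starts in this window, shown here because they differ in CpG dinucleotides, the sequence feature typical of Polycomb-bound promoters, together with the CpG-rich start of Tal1, the most marked member. Each sequence runs 5′ to 3′ on the gene's strand from 250 bases before the start to 50 after, and capitals mark CpG.
Mllt3, upstream start, chr4:88033358-88033657, minus strand: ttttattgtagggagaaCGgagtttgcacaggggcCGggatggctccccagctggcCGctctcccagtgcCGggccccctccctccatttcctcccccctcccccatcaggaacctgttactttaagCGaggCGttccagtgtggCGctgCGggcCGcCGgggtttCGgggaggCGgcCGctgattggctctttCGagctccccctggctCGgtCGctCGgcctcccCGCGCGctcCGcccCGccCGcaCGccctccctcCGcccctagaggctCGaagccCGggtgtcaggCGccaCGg
Mllt3, internal start, chr4:87806274-87806573, minus strand: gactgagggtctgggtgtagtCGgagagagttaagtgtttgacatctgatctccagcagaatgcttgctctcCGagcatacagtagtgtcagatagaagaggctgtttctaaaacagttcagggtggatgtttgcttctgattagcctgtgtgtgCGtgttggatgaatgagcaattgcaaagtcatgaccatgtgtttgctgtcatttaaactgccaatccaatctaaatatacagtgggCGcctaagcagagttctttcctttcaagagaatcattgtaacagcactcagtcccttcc
Tal1, downstream start, chr4:115057561-115057860, plus strand: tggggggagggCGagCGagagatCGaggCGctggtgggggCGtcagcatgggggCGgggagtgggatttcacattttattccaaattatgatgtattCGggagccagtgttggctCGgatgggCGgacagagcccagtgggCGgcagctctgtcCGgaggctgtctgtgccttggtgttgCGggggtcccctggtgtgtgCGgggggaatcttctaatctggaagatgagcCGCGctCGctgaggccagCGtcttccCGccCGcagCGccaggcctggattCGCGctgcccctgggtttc

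The upstream Mllt3 start held 29 CpG, more than 87.1% of the 32851 promoters in the table, and the internal one held 4. The Tal1 start shown held 22 and its other start 11. Promoters of 9 members were in the table, 13 starts in all, and Lmo2 had none. Hlf had the most CpG of the 13, with 30, and Prdm16 had 24, while Gfi1b and Lyl1 had 7, which is the median of all promoters. CpG number did not order the members by level. Mllt3, with 29 at its upstream start, was among the least marked in wild type. The start of Hlf, with 30, stood at a gene of 2.71 CPM per kb in wild type. At 5922 tested genes with 15 or more CpG at a start, the median level was 0.268 in cKO and 0.274 in wild type. At the 6337 with fewer it was 0.873 CPM per kb in cKO and 0.851 in wild type. On either strand, GATAA, the core bound by Gata factors, was in 4 of the 13 member promoters and in 25.4% of all promoters. The E-boxes CAGCTG and CAGATG, of the kind bound by Tal1 with E proteins, were in 1 and 3 of the 13, against 16.3% and 17.2% of all. AAATCA, which holds the AATC core of Gfi1 sites, was in 2 (14.0% of all) and TGACAG, the Meis core, in 2 (19.2% of all). The single CAGCTG was in the upstream Mllt3 start. Some letters of AAATCA and GATAA can overlap, and the counts of each stand alone.

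The genes on either side of Mllt3 were not called. Focad, whose gene lies 61.2 kb away, had 162 and 214 counts in cKO, against 105 and 115 in wild type (log2 fold change 0.27 ± 0.16, adjusted p = 0.371). Slc24a2, 539 kb away on the other side, had 733 and 818 counts in cKO, against 615 and 596 in wild type (−0.14 ± 0.10, adjusted p = 0.486). The difference between Mllt3 and these neighbours was not tested. The 3 tested genes whose log2 CPM per kb over the 4 libraries lay nearest to Mllt3 were Rfx3 (Euclidean distance 0.16), a ciliogenesis factor, Arhgap15 (0.28), a Rac GTPase-activating protein, and Gphn (0.30), which encodes the synaptic scaffold gephyrin. These genes, found by their likeness, had 0.489, 0.571 and 0.501 CPM per kb in cKO and 0.151, 0.159 and 0.141 CPM per kb in wild type. Their windows of 255446, 644800 and 464118 bp are long, as is that of Mllt3.

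**Figure D2:**
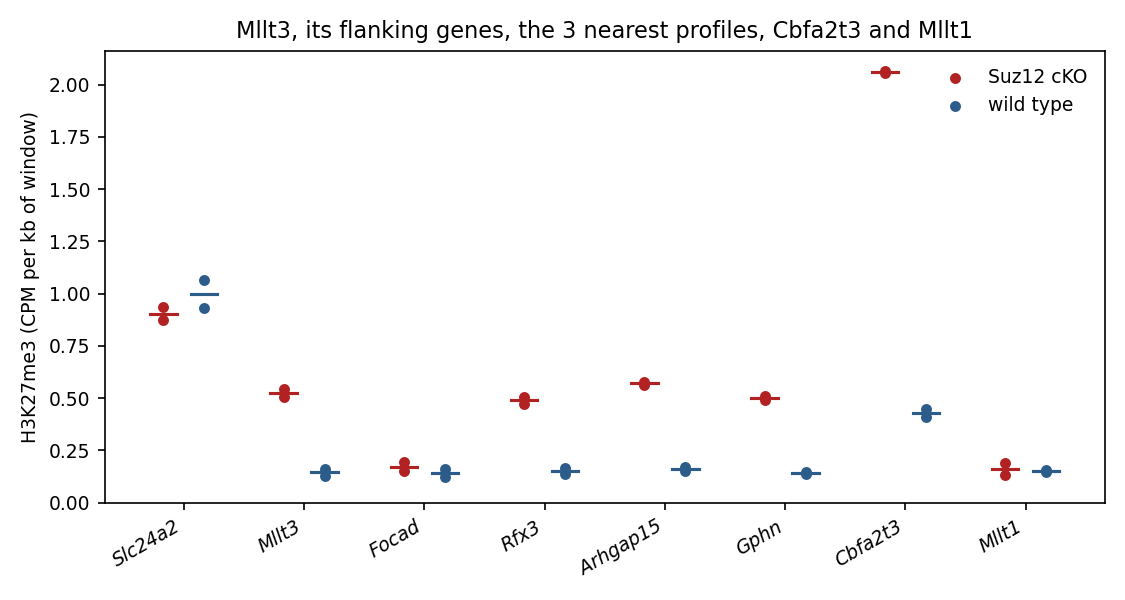
H3K27me3 in CPM per kb of window at Mllt3, its flanking genes Slc24a2 and Focad, the 3 genes of nearest profile (Rfx3, Arhgap15, Gphn), Cbfa2t3 and the paralogue Mllt1. Points are libraries and bars means of 2, with Suz12 cKO left of wild type. Mllt3 averaged 0.525 in cKO and 0.145 in wild type, while the groups at Slc24a2, Focad and Mllt1 lay close together.

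Of 15 genes of the elongation, Dot1l and MLL complexes that Mllt3 works in, 10 were tested, 1 was gained and none lost (4.46% and 1.96% over all tested genes), with a median log2 fold change of −0.23. The gained gene was Aff2, a scaffold of elongation complexes, at 559 ± 23.6 CPM in cKO and 462 ± 26.9 CPM in wild type (0.28 ± 0.09, adjusted p = 0.0331), and it was called under 5 of the 12 alternatives. Its adjusted p was 0.138 without cKO library 1, 0.480 without cKO library 2, 0.157 without wild-type library 1, 0.0724 with library totals, 0.150 with upper-quartile factors, 0.436 with housekeeping scaling and 0.0567 by DESeq2. Mllt1, the closest relative of Mllt3, had 21 and 32 counts in cKO, against 20 and 16 in wild type (0.06 ± 0.40, adjusted p = 0.959). Dot1l, the H3K79 methyltransferase that Mllt3 binds, had 1.64 ± 0.0237 CPM per kb in cKO and 1.25 ± 0.0350 in wild type (0.39 ± 0.15, adjusted p = 0.0885), and Aff3, another such scaffold, had 1.05 ± 0.0516 CPM per kb in cKO and 1.15 ± 0.0704 in wild type (−0.12 ± 0.09, adjusted p = 0.477).

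Tal1 was the most heavily marked member in both genotypes and was not called. Its gene is on chromosome 4 at 115056426 to 115071755. It held 1338 and 1404 counts in cKO, against 1060 and 697 in wild type, which is 405 and 406 CPM against 406 and 315 CPM. Both cKO libraries stood level with wild-type library 1, and wild-type library 2 was lower. Per kb of its 18.229 kb window Tal1 had 22.2 ± 0.0583 CPM in cKO and 19.8 ± 3.53 CPM in wild type (SD, n = 2 each), above 99.8% of tested genes in each genotype. The log2 fold change was 0.16 ± 0.09 (95% interval −0.02 to 0.34, adjusted p = 0.345). Without wild-type library 1 it was 0.37, and without wild-type library 2 it was 0.0048. Among the 1676 tested genes of highest mean CPM per kb, the median log2 ratio of wild-type library 2 to wild-type library 1 was −0.18, against −0.0011 over all tested genes. The same median between the cKO libraries was 0.02. The part of this library difference in the values of Tal1 and of Gfi1 was not tested.

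Lmo2 and Lyl1, the partner and the relative of Tal1, had few counts. Lmo2 (chromosome 2, 103957903 to 103981878) held 22 and 25 counts in cKO, against 16 and 22 in wild type, or 0.232 ± 0.0137 CPM per kb in cKO and 0.269 ± 0.0903 CPM per kb in wild type. The groups overlapped, with wild-type library 2 the highest of the 4. Its log2 fold change was −0.19 ± 0.41 (edgeR adjusted p = 0.865). The 95% interval ran from a fold of 0.499 to one of 1.53, which takes in both a loss and a gain. The sign turned without wild-type library 2 (0.19) and with housekeeping scaling (0.02). Lyl1 (chromosome 8, 84701423 to 84704716) held 6 and 6 counts in cKO, against 4 and 1 in wild type, and was not tested. Relative to library totals, cKO over wild type came to 1.65, and counting error alone allows 0.540 to 5.97 (exact binomial, 95%). By the reference positions the whole Lyl1 window lies under other windows, mainly those of Nfix and Trmt1, where the counting mostly left reads out: of 2445 windows so placed 67.1% held no count in any library, against 1.27% of 10808 windows without overlap. The Lyl1 count therefore does not show that the gene was unmarked. Nfix, a nuclear factor gene next to it, was gained, at 106 CPM in cKO and 68.0 CPM in wild type (0.63 ± 0.13, adjusted p = 0.000150). Of the tested genes flanking the 10 members on either side, Nfix was the 1 called, where 4.46% of all tested genes were gained and 1.96% lost. Beside Tal1, Stil, a centriole gene 13.2 kb away, had 15 and 15 counts in cKO, against 20 and 24 in wild type (−1.05 ± 0.44, adjusted p = 0.152), and Pdzk1ip1, 17.0 kb away, 150 and 174 counts in cKO, against 138 and 114 in wild type (−0.13, adjusted p = 0.740).

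Of 17 genes for partners and relatives of Tal1 and Lmo2, 16 were tested, 4 were gained and 1 lost, where 4.46% of all tested genes were gained and 1.96% lost, with a median log2 fold change of 0.12. Cbfa2t3, the ETO2 corepressor of the Tal1 complex, had 544 and 571 counts in cKO, against 85 and 79 in wild type, a log2 fold change of 2.27 ± 0.14. Tcf4, an E protein that pairs with Tal1-type factors, had 1091 and 1214 counts in cKO, against 335 and 313 in wild type. Its level was 0.974 ± 0.0430 CPM per kb in cKO and 0.386 ± 0.0266 CPM per kb in wild type (1.34 ± 0.10, adjusted p = 1.96e-27), and both genes were called under all 12 alternatives run. Tcf12, another E protein, had 46 and 34 counts in cKO, against 63 and 56 in wild type, and was called lost (−1.06 ± 0.27, adjusted p = 0.00316), though not without cKO library 2 (adjusted p = 0.167), with housekeeping scaling (0.156) or by DESeq2 (0.148). Tcf3, the third E protein, had 20 and 12 counts in cKO, against 15 and 14 in wild type (−0.34 ± 0.49, adjusted p = 0.774). The 3 E protein genes thus had fold changes of different sign and size, and the differences between them were not tested.

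Ssbp2, which stabilises the Ldb1 adaptor of the complex, was gained at 596 ± 6.36 CPM in cKO and 392 ± 6.48 CPM in wild type (0.60 ± 0.09, adjusted p = 7.66e-09), but not with housekeeping scaling (adjusted p = 0.0890). Other windows cover 4.2% of its own. Lmo3, a relative of Lmo2, was gained at 175 ± 5.78 CPM in cKO and 125 ± 21.7 CPM in wild type (0.49 ± 0.11, adjusted p = 0.000923), but not without cKO library 2 (adjusted p = 0.123), without wild-type library 1 (0.129) or with housekeeping scaling (0.144). Lmo1 had 198 and 215 counts in cKO, against 176 and 166 in wild type (−0.22 ± 0.14, adjusted p = 0.431), and Ldb1 19 and 3 counts in cKO, against 10 and 5 in wild type (0.08 ± 0.63). Gata2, a stem cell Gata factor, was marked like Tal1, at 22.6 ± 0.410 CPM per kb in cKO and 18.6 ± 0.990 CPM per kb in wild type (0.27 ± 0.10, adjusted p = 0.0618). Nhlh2, a neuronal relative of Tal1, had 13.3 ± 0.668 CPM per kb in cKO and 12.9 ± 0.926 in wild type (0.05 ± 0.11, adjusted p = 0.890).

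**Figure D3:**
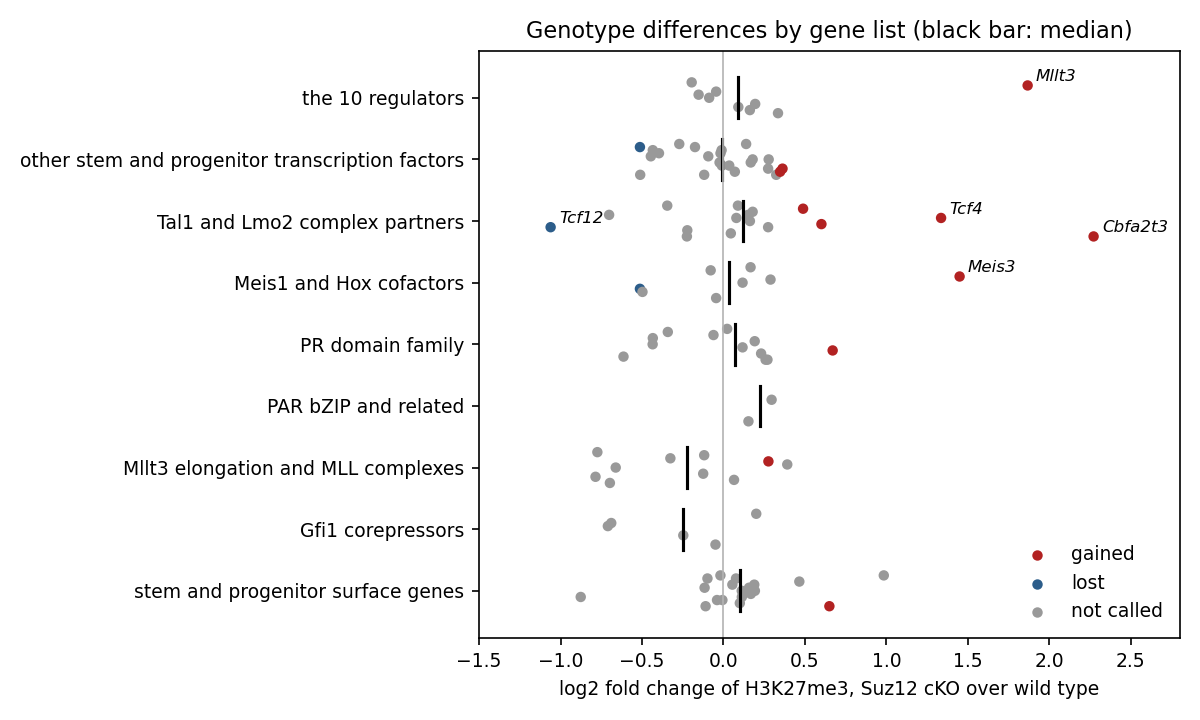
Log2 fold change of H3K27me3 (Suz12 cKO over wild type) of each tested gene of the 10 regulators and of 8 related lists. Each point is a gene, red if gained, blue if lost and grey if not called, and black bars are medians. Cbfa2t3 (2.27), Mllt3 (1.87), Meis3 (1.45) and Tcf4 (1.34) lay farthest to the right and Tcf12 (−1.06) farthest to the left.

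The 3 stem cell factors Mecom, Prdm16 and Hlf carried the mark at moderate to high levels in both genotypes. Mecom (chromosome 3, 29951296 to 30509759) held 2195 and 2378 counts in cKO, against 1943 and 1670 in wild type, which is 664 and 688 CPM against 745 and 755 CPM. Both cKO libraries were a little below both wild-type libraries with TMM scaling. The log2 fold change was −0.15 ± 0.08 (95% interval −0.32 to 0.01, adjusted p = 0.320). It was called lost under upper-quartile scaling (−0.24, adjusted p = 0.0380) and when genes averaging under 50 counts were dropped (−0.21, adjusted p = 0.0382), and its sign turned with housekeeping scaling (0.07). Other windows cover 3.4% of the Mecom window.

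Prdm16 (chromosome 4, 154316122 to 154637360) held 1098 and 1296 counts in cKO, against 996 and 814 in wild type, which is 332 and 375 CPM against 382 and 368 CPM. The groups overlapped, cKO library 1 being the lowest. Its log2 fold change was −0.09 ± 0.09 (95% interval −0.27 to 0.09, adjusted p = 0.677), with a change of sign under housekeeping scaling (0.15) and without cKO library 1 (0.00). Prdm16os, a noncoding gene that starts 220 bp from Prdm16, had 91.5 CPM in cKO and 89.3 CPM in wild type (0.03 ± 0.13, adjusted p = 0.937), with 44.0% of its window under others.

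Hlf (chromosome 11, 90336535 to 90390917) held 586 and 683 counts in cKO, against 436 and 353 in wild type, which is 177 and 198 CPM against 167 and 160 CPM. Both cKO libraries were higher, and the gene was not called (log2 fold change 0.19 ± 0.11, 95% interval −0.02 to 0.41, adjusted p = 0.323). Per kb, Hlf had 3.10 ± 0.238 CPM in cKO and 2.71 ± 0.0876 CPM in wild type, Mecom 1.20 ± 0.0302 in cKO and 1.33 ± 0.0131 in wild type, and Prdm16 1.08 ± 0.0927 in cKO and 1.15 ± 0.0296 in wild type. The related bZIP genes Tef and Nfil3 had far less, at 0.119 ± 0.0730 and 0.233 ± 0.123 CPM per kb in cKO. In wild type they had 0.0946 ± 0.0278 and 0.205 ± 0.0648 CPM per kb, and neither was called. The third relative, Dbp, held 3 and 3 counts in cKO, against 0 and 1 in wild type, and was not tested.

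In the PR domain family outside the members, 12 of 13 genes were tested. Of these 1 was gained and none lost (4.46% and 1.96% over all tested genes), with a median log2 fold change of 0.07. The gained gene was Prdm11, at 134 ± 0.187 CPM in cKO and 83.5 ± 11.96 CPM in wild type (0.67 ± 0.12, adjusted p = 1.02e-05), called under all 12 alternatives. Prdm13 and Prdm8, regulators of neuronal fate, were the most marked, at 21.9 ± 0.653 and 17.1 ± 1.01 CPM per kb in cKO and 19.1 ± 3.46 and 14.3 ± 1.41 CPM per kb in wild type (adjusted p = 0.263 and 0.127).

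Meis1 (chromosome 11, 18880428 to 19019651) held 155 and 164 counts in cKO, against 115 and 98 in wild type. Scaled, these were 46.9 and 47.4 CPM in cKO, against 44.1 and 44.3 CPM in wild type. The groups did not overlap but lay close together, and the log2 fold change was 0.09 ± 0.17 (95% interval −0.24 to 0.42, adjusted p = 0.837). Per kb Meis1 had 0.326 ± 0.00277 CPM in cKO and 0.306 ± 0.0012 CPM in wild type, below its relative Meis2, a neural and limb homeobox gene, at 2.19 ± 0.0529 CPM per kb in cKO and 2.25 ± 0.119 in wild type. Of 10 genes for Meis relatives and other Hox cofactors, 8 were tested and 1 was gained (4.46% over all tested genes). The median log2 fold change of the 8 was 0.04. Meis3 was gained, with 34 and 47 counts in cKO, against 13 and 8 in wild type (1.45 ± 0.41, adjusted p = 0.0125), but not without cKO library 2 (adjusted p = 0.291) or wild-type library 2 (0.122), and DESeq2 gave it no adjusted p. Pknox2 had 2.39 ± 0.104 CPM per kb in cKO and 2.52 ± 0.0818 in wild type (−0.08 ± 0.08, adjusted p = 0.687).

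Per kb, Gfi1 stood above its relative Gfi1b in each library. Gfi1 (chromosome 5, 107716655 to 107725805) held 208 and 217 counts in cKO, against 152 and 89 in wild type, which is 62.9 and 62.8 CPM against 58.3 and 40.2 CPM. Wild-type library 2 was again the low one. The log2 fold change was 0.33 ± 0.16 (95% interval 0.03 to 0.64), with an unadjusted edgeR p of 0.0317 and an adjusted p of 0.210. Without wild-type library 1 it was 0.65, and without wild-type library 2 it was 0.12. Gfi1b (chromosome 2, 28609450 to 28621982) held 69 and 82 counts in cKO, against 64 and 47 in wild type, which is 20.9 and 23.7 CPM against 24.5 and 21.3 CPM. The groups overlapped (log2 fold change −0.04 ± 0.24, 95% interval −0.51 to 0.42, adjusted p = 0.951), and the sign turned with housekeeping scaling (0.18) and without cKO library 1 (0.05) or wild-type library 1 (0.07). Per kb Gfi1 had 4.59 ± 0.00676 CPM in cKO and 3.60 ± 0.930 CPM in wild type, and Gfi1b 1.20 ± 0.109 CPM in cKO and 1.24 ± 0.125 CPM in wild type. Of 10 corepressor genes for Gfi1, among them the demethylase Kdm1a, 5 were tested. None was called gained or lost, against 4.46% and 1.96% of all tested genes. Each had an edgeR adjusted p of 0.378 or above, and the median log2 fold change was −0.25. The most marked corepressor gene was Ajuba, a LIM protein gene, which had 1.06 ± 0.0442 CPM per kb in cKO and 1.10 ± 0.219 in wild type. Next came Hdac2, a histone deacetylase gene, at 0.275 ± 0.0212 in cKO and 0.3298 ± 0.109 in wild type.

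**Figure D4:**
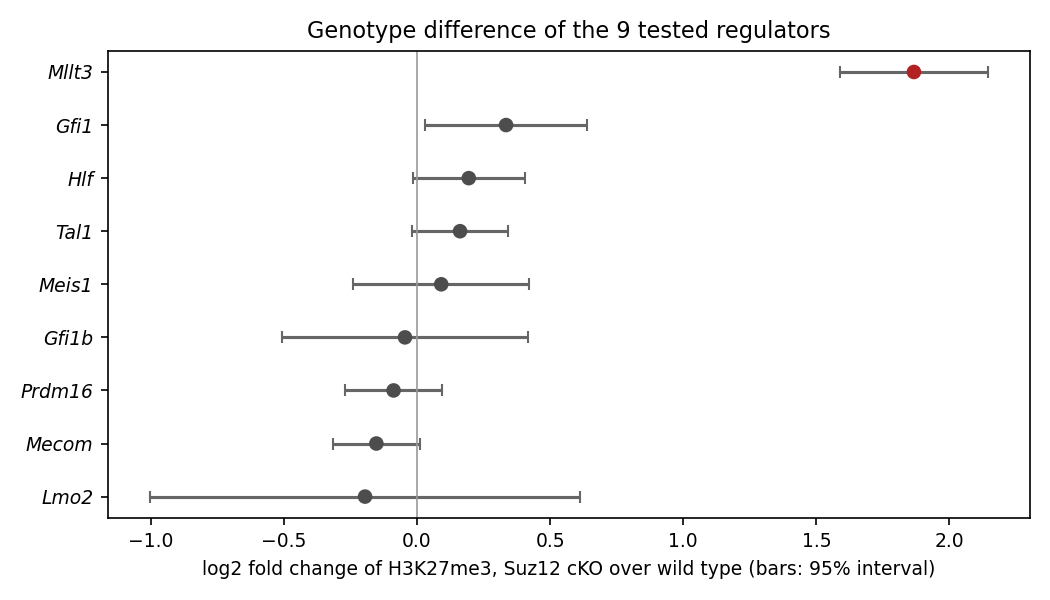
Log2 fold change of H3K27me3 for the 9 tested regulators, Suz12 cKO over wild type, with 95% intervals from the fit of 2 cKO and 2 wild-type libraries. Mllt3 (red, called gained) lay at 1.87 and the other 8 (grey, not called) between −0.19 and 0.33.

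Ordered by CPM per kb, the wild-type levels ran from Tal1 (19.8) through Gfi1 (3.60), Hlf (2.71), Mecom (1.33), Gfi1b (1.24), Prdm16 (1.15), Meis1 (0.306), Lmo2 (0.269) and Mllt3 (0.145) to Lyl1 (0.107). Gfi1 and Hlf lay within the spread of Gfi1 (SD 0.930), Gfi1b within its own spread (0.125) of both Mecom and Prdm16, and Meis1 within the spread of Lmo2 (0.0903). Mllt3 and Lyl1 also lay within the spread of Lyl1 (0.0825). Within each wild-type library, though, Gfi1 stood above Hlf (4.26 against 2.77, and 2.94 against 2.64). Gfi1b likewise stood above Prdm16 (1.32 against 1.17, and 1.15 against 1.13). The other pairs changed order between the wild-type libraries. In cKO the order was the same except that Gfi1b (1.20) stood level with Mecom (1.20) and Mllt3 (0.525) stood above Meis1 (0.326), Lmo2 (0.232) and Lyl1 (0.192). Long windows average the mark over more gene body, so the order is one of mean density and not of promoter mark.

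**Figure D5:**
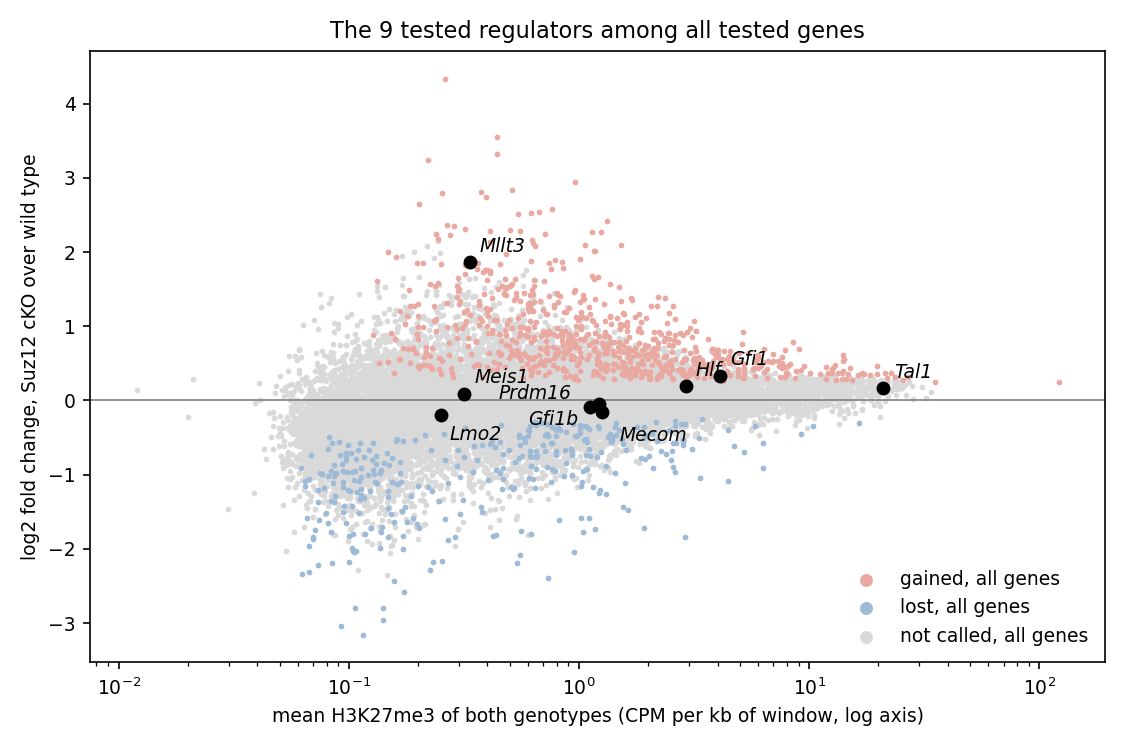
All 16752 tested genes by mean H3K27me3 (CPM per kb, log axis) and log2 fold change (Suz12 cKO over wild type), with gained genes in light red, lost genes in light blue and genes not called in grey. Black points are the 9 tested regulators: Mllt3 lay at 1.87 among the gained genes, and the other 8 lay near 0 at levels running up to Tal1.

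Of 24 other transcription factor genes of blood stem and progenitor cells, 23 were tested and 2 were gained (4.46% over all tested genes). The median log2 fold change of the 23 was −0.01. The median level of the 24 was 1.61 CPM per kb in cKO and 1.71 CPM per kb in wild type. Nkx2-3 was gained, with 188 ± 5.81 CPM in cKO and 145 ± 22.4 CPM in wild type (0.36 ± 0.11, adjusted p = 0.0216). The second gain was Hoxa9, with 178 and 164 CPM in cKO, against 158 and 108 CPM in wild type (0.35 ± 0.11, edgeR adjusted p = 0.0389). Other windows overlap 46.4% of its own. At Nkx2-3 the wild-type libraries had 161 and 129 CPM, so wild-type library 2 was the lower at both genes. Each gain was called under 5 of the 12 alternatives. Nkx2-3 was not called without wild-type library 2 (adjusted p = 0.360), cKO library 1 (0.150) or cKO library 2 (0.371), with library totals (0.0531), upper-quartile factors (0.112) or housekeeping scaling (0.276), or by DESeq2 (0.175). Under the same settings the adjusted p of Hoxa9 was 0.731, 0.390, 0.189, 0.0923, 0.191, 0.301 and 0.343, in that order. Sox17, a factor of fetal stem cells and endothelium, had 18.5 ± 0.638 CPM per kb in cKO and 17.6 ± 0.501 CPM per kb in wild type (0.07 ± 0.10, adjusted p = 0.784). Runx1, the core binding factor gene that macrophages also use, had 133 and 122 CPM in cKO, against 106 and 119 CPM in wild type (0.18 ± 0.12, adjusted p = 0.442). Spi1, which encodes the macrophage regulator PU.1, held 23 and 7 counts in cKO, against 15 and 14 in wild type (−0.43 ± 0.50, adjusted p = 0.709).

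Of 21 surface and receptor genes of stem and progenitor cells, 19 were tested. Among the 19, 1 was gained and none lost (4.46% and 1.96% over all tested genes), with a median log2 fold change of 0.10. Adgrg1, an adhesion receptor of stem cells, was gained at 202 ± 6.76 CPM in cKO and 128 ± 2.94 CPM in wild type (0.65 ± 0.11, adjusted p = 8.95e-07), called under all 12 alternatives and with 6.8% of its window overlapped. Flt3, a cytokine receptor, had 5.15 ± 0.195 CPM per kb in cKO and 4.79 ± 0.371 in wild type (0.10 ± 0.09, adjusted p = 0.618), and Esam, an adhesion molecule, 3.93 ± 0.420 in cKO and 4.19 ± 0.252 in wild type (−0.10 ± 0.14, adjusted p = 0.784), with 56.0% of its window overlapped. Kit, the stem cell factor receptor, held 299 and 344 counts in cKO, against 237 and 254 in wild type (−0.11 ± 0.13, adjusted p = 0.709). Over the 8 lists, with each gene counted once, 92 of 110 genes were tested and 10 were gained (4.46% over all tested genes).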

How the data were processed

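The deposited file is a table of raw counts per Entrez gene for the 4 libraries, with each window's length in bp. Per the submitters' processing notes the counter was featureCounts and the build mm10; the sources used here name no aligner, duplicate handling or counter settings. Window lengths equal the RefSeq gene span (GRCm38.p6, the same build) plus 6000 bp for 11525 genes; symbols were found for 25204 IDs (93.0%). For several members the deposited window is shorter than span plus flanks (Tal1 most), so overlaps are approximate. CPM used column totals times TMM factors; CPM per kb divides by the deposited length. Genotypes were compared with edgeR 4.0.16 in R 4.3.3 (filterByExpr, estimateDisp, glmQLFit, glmQLFTest, with 10343 genes filtered out). In simulated counts this fit called 22% of 50 genes changed 1.5-fold, 68% of 50 changed 2-fold and 94% of 50 changed 4-fold. The changed genes were drawn at random above a low count floor, and every gene was given the same dispersion. The rates are an average over such genes and not those of any member. Small changes can thus go uncalled. SE is the log2 fold change divided by the square root of F. Alternatives used other scalings, count filters, DESeq2 1.42.0, each library left out and a replicate block. Members and lists were chosen with earlier results of these data known. Named genes are all members, the called and the 2 most marked genes of each pathway list, flanking genes with counts and the 3 nearest profiles to the called member; Mllt1, Lmo1, Lmo2's partner Ldb1, Tcf3, Dbp, Runx1, Spi1 and Kit, and the called marker genes, were added after their values were seen, and of the flanking genes those of Mllt3, Tal1, Lyl1 and Prdm16 are described. The result of 1 list gene is not reported here. No source says the replicates came from separate mice, so p-values measure the spread between libraries. The fit pooled that spread over genes. Tests and intervals of the members used 297.6 degrees of freedom, most of them borrowed from other genes and not from the gene's own libraries.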

Additional observations from a re-analysis of the deposited data

How the results depend on the processing

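Mllt3 was gained under all 12 alternatives, at 1.71 to 2.09 on the log2 scale (highest adjusted p 5.66e-11), and Meis1 and Hlf stayed positive and uncalled under all 12. The count of members lost was 1 (Mecom) under upper-quartile scaling and when genes averaging under 50 counts were dropped, and 0 otherwise; leaving out each library in turn gave 1 to 3 members gained and 0 lost, the 3 (Mllt3, Tal1 and Gfi1) without wild-type library 1. With housekeeping scaling the log2 fold change turned sign for Mecom (0.074), Prdm16 (0.15), Lmo2 (0.022) and Gfi1b (0.18); the list held 400 to 578 counts per library, which limits this scaling. The sign also turned for Prdm16 (0.0022) and Gfi1b (0.049) without cKO library 1, Gfi1b (0.073) without wild-type library 1 and Lmo2 (0.19) without wild-type library 2, and none was called there. Leaving out each library gave −0.17 to 0.0022 for Prdm16, −0.51 to 0.19 for Lmo2 and −0.14 to 0.073 for Gfi1b. Over all genes, 747 gained and 329 lost became 494 and 519 with upper-quartile factors, 392 and 27 with housekeeping scaling and 322 and 45 by DESeq2; leaving out each library gave 350 to 738 gained and 76 to 207 lost. The causes were not tested. With the replicate block 733 were gained and 306 lost, 1 member gained; same-numbered libraries did not deviate together (r = 0.0084), so the numbers were not taken as pairs. At this depth 2 libraries per genotype leave Lmo2 and Lyl1 without a usable comparison.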
